A study of Mus musculus with 8 samples.

Results

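Meg3, Malat1, Miat, Snhg11, Neat1 and Rian are long noncoding RNAs reported from neurons, and their counts were taken from all rows of the count table that carry these gene names. The 6 gene names, of 23335 in all, held 8 of the 27207 transcript rows: 3 for Meg3 and 1 for each of the others. The name "abundant" fitted only some of them. Meg3, Malat1 and Snhg11 were among the 13 highest genes of these cells, Rian ranked 737 by its mean level, Miat had 52 unique tags in all, and Neat1 had none.

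A long noncoding RNA is transcribed and often spliced and polyadenylated like a messenger RNA but is not known to be used as a template for protein. Meg3 and Rian are expressed from the maternal copy of the imprinted Dlk1-Dio3 domain, where their transcripts also hold microRNAs and small nucleolar RNAs. Malat1 is retained in nuclear speckles, bodies rich in splicing factors, and Neat1 is the scaffold of paraspeckles. Miat (also called Gomafu) forms nuclear domains of its own in neurons, and Snhg11 is a host gene of small nucleolar RNAs in its introns.

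Messenger RNA was measured in single cells of the frontal cortex of 4 female mice, all labeled WT. Chandelier cells (ChC), interneurons whose synapses lie on the initial segment of pyramidal axons, were labeled in Nkx2.1-CreER; Ai14 mice given tamoxifen at embryonic day 17.5, and the fast-spiking Pv cells in Pv-ires-Cre; Ai14 mice; Ai14 is a red fluorescent reporter that Cre switches on. The tamoxifen note stands on the labels of both lines, although only the first carries an inducible Cre. ChC batches 1 and 2 came from animal 1 (postnatal day 31) and 3 and 4 from animal 2 (day 32), and Pv batches 5 and 6 came from animal 3 (day 29) and 7 and 8 from animal 4 (day 35). Each type had its own mouse line and its own flow cell, so that cell type, line and sequencing run cannot be told apart, and within a flow cell each animal had its own lane. Cre driven by Nkx2.1 or Pvalb also labels other cells that use these promoters, and the label alone does not make every cell a chandelier or basket cell.

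Of 128 cells, 2 had no counts, and 63 ChC and 63 Pv cells were used. Each unique tag (UMI) stands for 1 amplified molecule. In ChC the batches summed to 448121, 556405, 2460679 and 1123083 UMI and in Pv to 392580, 430860, 316540 and 797177. A cell held a median of 33244 UMI in ChC and 23248 in Pv, with a range of 903 to 515374 over all cells. Levels below are in CPM, the UMI of a gene relative to the total of its batch, scaled between batches by trimmed mean of M-values (TMM); for a gene with several rows the row with the most UMI was taken. Reads were primed at poly(A), and each tag of a gene was counted once. CPM were not divided by transcript length, and any effect of length on the levels was not tested.

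Markers from textbook knowledge, listed with earlier results of these data known, were read in the same cells. Slc32a1 (the vesicular GABA transporter) and Erbb4 had a UMI in all 63 ChC and 63 Pv cells and Gad1 (GABA synthesis) in all but 1. Pvalb stood at 140 ± 52.9 CPM in ChC and 1073 ± 538 CPM in Pv (SD, n = 4 batches each). Of 7 pyramidal markers, Neurod6, Slc17a6, Tbr1 and Emx1 were at 0 in all batches. The most abundant pyramidal marker was Camk2a at 280 ± 226 CPM (SD, n = 8 batches). Gfap, Mag, Mobp, C1qa, Tmem119 and Cldn5 were at 0 among the glial and endothelial markers, but others of these lists were not. The most abundant was Slc1a2 of astrocytes at 163 ± 188 CPM (SD, n = 8 batches), with a UMI in 85 cells. Slc1a3 had a UMI in 81 cells, Mbp in 53 and Flt1 in 32.

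Meg3 led the 6 genes. In the 4 ChC batches it had 7636, 6105, 5055 and 4333 CPM, and in the 4 Pv batches 5089, 4071, 4338 and 4111 CPM. Both batches of animal 1 lay above every Pv batch, and those of animal 2 lay within the range of the Pv batches, so that the types overlapped. The means were 5782 ± 1434 CPM in ChC and 4402 ± 473 CPM in Pv (SD, n = 4 batches each). Every cell of both types had Meg3, and within the batches its rank among all genes was 2 to 4. Even after each cell was thinned to 10000 UMI, the lowest of 103 cells kept 17 Meg3 UMI and the median cell 49.

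Malat1 came next and spread more widely. It had 3652, 6888, 2311 and 1757 CPM in the ChC batches and 2327, 2588, 3400 and 1290 CPM in the Pv batches. ChC batch 2 was the highest and Pv batch 8 the lowest, a ratio of 5.34, while the other 6 batches of both types were interleaved. The means were 3652 ± 2299 CPM in ChC and 2401 ± 870 CPM in Pv (SD, n = 4 batches each). Malat1 was present in every cell too, and its rank in a batch went from 3 (ChC batch 2 and Pv batch 7) to 46 (Pv batch 8).

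Snhg11 had 3428, 829, 2751 and 1330 CPM in the ChC batches and 1215, 2157, 2720 and 1873 CPM in the Pv batches. High and low batches occurred in each type, and in ChC they occurred within each animal, since batches 1 and 2 came from one animal and batches 3 and 4 from the other. The means were 2085 ± 1210 CPM in ChC and 1991 ± 626 CPM in Pv (SD, n = 4 batches each). All cells but 2 of ChC batch 2 had a UMI of Snhg11. Its row (chr2:158201374-158211881, mm9, plus strand) carries a RefSeq messenger RNA identifier and GENCODE vM1 lists the gene as protein coding, so that its class as noncoding is not settled in the annotation of this build.

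Rian, the neighbor of Meg3 in the imprinted domain, was far lower. The ChC batches had 430, 420, 183 and 146 CPM and the Pv batches 552, 4.85, 270 and 86.7 CPM. Pv batch 5 was the highest and Pv batch 6, from the same animal, the lowest, with 199 and 2 UMI. The means were 295 ± 151 CPM in ChC and 228 ± 243 CPM in Pv (SD, n = 4 batches each). A UMI of Rian was seen in 62 of 63 ChC cells (98.4%, exact 95% interval 91.5% to 99.96%) and in 47 of 63 Pv cells (74.6%, 62.1% to 84.7%), and 13 of the 16 Pv cells without one were in batch 6; these intervals cover counting error only. With cells thinned to 10000 UMI, Rian was found in 85.4% of 48 ChC cells and 67.3% of 55 Pv cells, and 15 ChC and 8 Pv cells were too shallow to enter.

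Rian was not the only gene that was low in Pv batch 6 alone. There, 31 of 1064 genes (2.91%) that had at least 50 CPM in each of the other 7 batches stood more than 10 times below their lowest value elsewhere. ChC batch 1 had 35 of 1095 such genes (3.196%), Pv batch 5 had 11 of 1031 (1.07%), and each of the other 5 batches had at most 4. Xist, the long noncoding RNA of the inactive X chromosome, was among the 31 genes of batch 6 with 0 UMI against at least 107 CPM (unscaled) elsewhere. The reason for the low values was not tested.

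**Figure D1:**
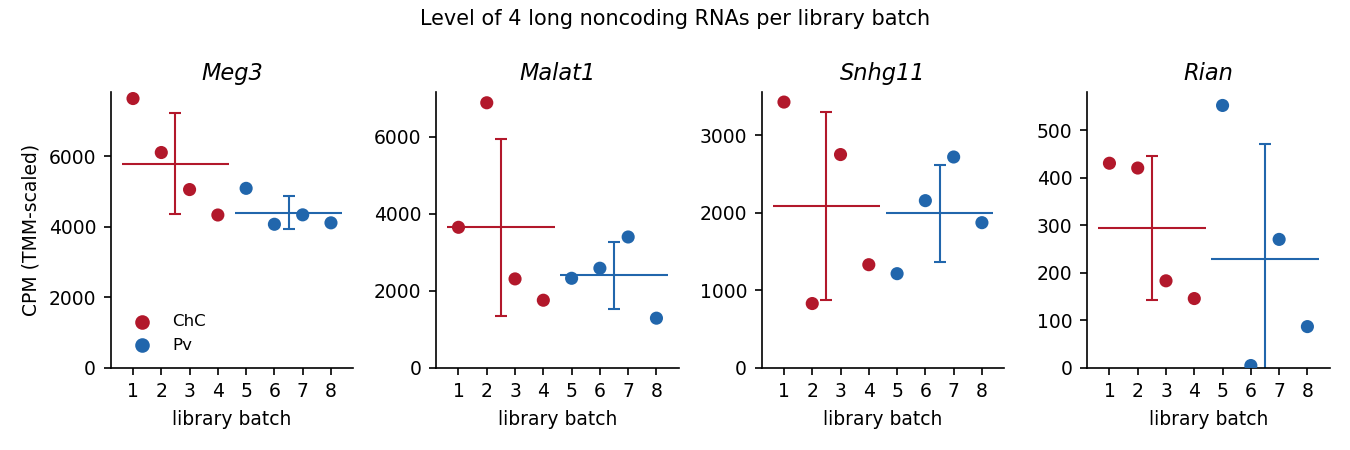
Level of Meg3, Malat1, Snhg11 and Rian in each of the 8 library batches, in TMM-scaled CPM on linear axes from 0. Points are batches (red ChC, blue Pv), horizontal lines the mean of 4 batches and bars the SD, cut off at 0 for Rian in Pv; the batches of both types overlap for all 4 genes, and Rian in Pv batch 6 lies at 4.85 CPM.

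Miat and Neat1 were at or near the limit of these libraries. Miat had 33 UMI in ChC batch 3, 17 in Pv batch 7, 1 each in Pv batches 5 and 8, and 0 in the other 4 batches. Those UMI fell in 22 cells, 10 of them in ChC batch 3 and 10 in Pv batch 7, so that each of the 2 batches had it in 62.5% of its cells and the remaining 6 had it in 2 cells together. The 2 batches differ in depth, with 2460679 and 316540 UMI, and gave 13.2 and 44.2 CPM. For a batch without a UMI, 3 counts set the upper limit, which was 7.38 CPM in ChC batch 1, 5.58 in ChC batch 2, 2.68 in ChC batch 4 and 7.28 in Pv batch 6. Of the 103 cells thinned to 10000 UMI, 5 kept a UMI of Miat.

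Neat1 had 0 UMI in all 8 batches. A count of 0 over all cells allows a share of up to 2.38% of cells with a UMI, and 3 of all UMI correspond to 0.460 CPM (unscaled). The only Neat1 row in the table spans chr19:5842302-5845478 (mm9, minus strand), whereas GENCODE vM1 gives the gene as chr19:5824708-5845478. The row thus covers the start of the annotated gene, and tags from the rest of it were not analysed here.

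The order of the levels was Meg3, Malat1, Snhg11, Rian, Miat and Neat1. Over the 8 batches the means were 5092 ± 1233 CPM for Meg3, 3027 ± 1743 CPM for Malat1, 2038 ± 893 CPM for Snhg11 and 262 ± 191 CPM for Rian (SD). Meg3 exceeded Malat1 in 7 of 8 batches and Malat1 exceeded Snhg11 in 6 of 8, and the difference between the latter means was within the SD of Malat1. Snhg11 exceeded Rian in all 8. Together the 6 genes took between 0.754% and 1.38% of the UMI of a batch.

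Whether the RNAs differed between ChC and Pv was tested with UMI summed per animal, 2 against 2. The edgeR quasi-likelihood test called 0 of 9681 genes at an adjusted p of 0.05 (0%), with 618 at an unadjusted p under 0.05, and called 0 of the 4 members that passed the filter on low counts; Miat and Neat1 did not pass it. DESeq2 called 165 of 10121 genes, edgeR without a filter 84 of 16531, edgeR over the 8 batches 6 of 6283, and limma-voom over batches with the animal as a random block 6 of 6283, and none of these called a member.

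In the edgeR fit over animals with its filter, the log2 differences of ChC over Pv were all above 0, and none exceeded 2 standard errors. Malat1 had 0.77 ± 0.48 (SE, adjusted p = 0.893). Without animal 1, which gave ChC batches 1 and 2, the value was -0.064, and without animal 2 it was 1.30. With only ChC batch 2 left out it was 0.47. In edgeR without a filter Malat1 had 0.77 ± 0.35 (SE, adjusted p = 0.454), which did exceed 2 standard errors. Meg3 had 0.39 ± 0.33 (adjusted p = 0.966). Rian had 0.54 ± 0.75 (adjusted p = 0.989) and changed sign when animal 1 (-0.26) or Pv batch 6 (-0.29) was left out. Snhg11 had 0.13 ± 0.39 (adjusted p = 0.998), with a range of -0.30 to 0.64 over the batches left out in turn. Over all genes tested the median was 0.05.

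The rows of Meg3 showed a difference that the gene total hides, noticed after the values were seen. All 3 rows lie on the plus strand of chromosome 12 (mm9). The longest spans chr12:110779206-110809939 with 32499 UMI, the next has the same start and ends at 110806810 with 28463 UMI, and the last, chr12:110783608-110806810, has 22792 UMI. In each cell the longest row had at least as many UMI as the next, and that one at least as many as the last, so the rows share tags and were not summed. The longest row reaches beyond the next by 3129 bases, chr12:110806811-110809939.

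Whether rows were counted over their whole spans and on which strand is not given in the sources used here, so it was read from other rows, after the values were seen. Where the row of a gene lies within the span of a row of another gene and has at least 100 UMI, counting over whole spans gives the outer row at least as many UMI in each cell. This held in every cell for 343 of 343 gene pairs on the same strand and for 95 of 96 on opposite strands (Nap1l5 within Herc3, for example, with 7759 and 8298 UMI), and for 1825 of 1830 pairs of rows of the same gene. With the outer row of the pairs of different genes replaced by one of the same chromosome without overlap and with at least as many UMI, it held for 8 of 343 and 6 of 94 pairs. The counts thus behave as tags counted over genomic spans, introns included, on either strand, and on this reading the UMI of the longest Meg3 row in excess of the next lie in the last 3129 bases.

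By this excess, few Meg3 UMI of ChC were in the last stretch. Its share of the Meg3 UMI was 7.73%, 1.74%, 5.89% and 5.26% in the ChC batches and 29.2%, 27.5%, 22.04% and 39.8% in the Pv batches. All 4 Pv batches lay above all 4 ChC batches. The means were 5.15% ± 2.51 in ChC and 29.6% ± 7.42 in Pv (SD, n = 4 batches each), 24.5 percentage points apart. Over the 4 animals the shares were 4.65% and 5.71% in ChC and 28.4% and 33.996% in Pv, where an exact permutation test cannot go below p = 0.333. No test of the share over batches is given, since the separation was seen first and batches of an animal are not independent. Mouse line and flow cell differ with the cell type, and their parts in this difference cannot be told apart.

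The cells separated as the batches did. The share ran from 0% to 12.5% over the 63 ChC cells, with a median of 5.39%, and from 15.8% to 49.3% over the 63 Pv cells, with a median of 29.7%. No ChC cell reached the lowest Pv cell, down to cells with as few as 3 Meg3 UMI in ChC and 5 in Pv. Batches within a type also differed by more than counting error: ChC batches 1 and 2 of the same animal had exact 95% intervals of 6.81% to 8.73% and 1.32% to 2.24%, and Pv batches 7 and 8 of the same animal 20.1% to 24.1% and 38.1% to 41.4%.

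**Figure D2:**
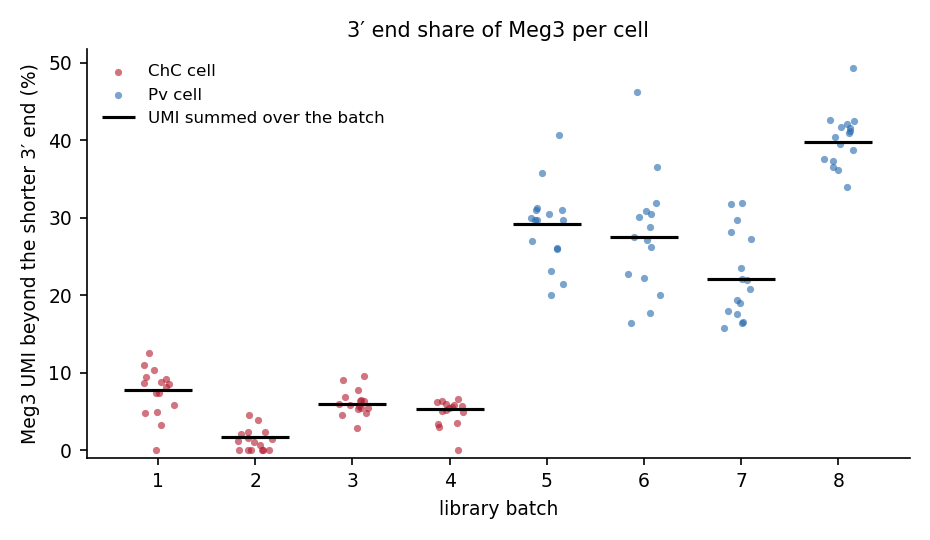
Share of the Meg3 UMI that lay beyond the shorter 3′ end, in percent, for each of the 63 ChC and 63 Pv cells by library batch (points, red ChC and blue Pv, spread sideways for visibility), with the share of the summed UMI of the batch as a black line. The highest ChC cell lies at 12.5% and the lowest Pv cell at 15.8%.

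The same share was computed for each gene with a pair of rows that start at the same base and end at different ones, had nested counts in every cell and had at least 20 UMI of the longer row in every batch. Of 59 such genes, Meg3 was the only one whose batches did not overlap between the types with Pv higher (1.69%), and none had ChC higher without overlap. Meg3 was examined because its batches did not overlap, so this count is no independent support for it, and it had at least 1670 UMI in each batch where other genes entered with as few as 20, which makes overlap likelier for them. By the difference of the means alone Meg3 was not at the top, since 4 genes (Fam65b, Agap3, Npm1 and Gria4, also noticed afterwards) had larger ones with Pv higher, up to 37.1 percentage points, and Ptk2 had a larger one with ChC higher (54.02% in ChC and 15.8% in Pv, -38.2 percentage points), all with overlapping batches. The median over the 59 genes was 1.10 percentage points, and the mean was higher in Pv for 35 of them. At the 5′ side of Meg3 the types overlapped: the share of the shared-end row that lay before the start of the shortest row was 21.4% ± 3.22 in ChC and 19.1% ± 2.45 in Pv (SD, n = 4 batches each).

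As levels, the 2 portions of Meg3 differed in opposite directions. The last stretch had 590, 106, 298 and 228 CPM in the ChC batches and 1484, 1121, 956 and 1635 CPM in the Pv batches. The portion up to the shorter end had 7045, 5999, 4757 and 4106 CPM in the ChC batches and 3605, 2950, 3382 and 2476 CPM in the Pv batches. Neither portion overlapped between the types, a pattern that 2.78% of the 9681 tested genes showed with ChC higher and 1.55% with Pv higher. Without scaling between batches, the last stretch stayed apart, while the portion up to the shorter end overlapped, with 4089 CPM in ChC batch 4 and 4113 CPM in Pv batch 7.

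When Meg3 was entered into the edgeR fit over animals as these 2 portions, the last stretch had a log2 difference of ChC over Pv of -2.22 ± 0.49 (SE, adjusted p = 0.576) and the rest 0.85 ± 0.34 (adjusted p = 0.715). Neither was called among 9682 features, where the count of calls was 0 with edgeR and 166 of 10122 with DESeq2; by unadjusted p the last stretch ranked 24. Leaving out an animal in turn kept the log2 difference of the last stretch between -2.31 and -2.12 and that of the rest between 0.58 and 1.09.

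In GENCODE vM1 (mm9), 99.9% of its bases are exonic in Meg3, over 3 transcripts. A gene on the opposite strand, Gm17639, a lincRNA at chr12:110806838-110809933, has exons over 39.2% of the same bases. The table has no row for Gm17639, and rows on opposite strands share their UMI as described above, so that tags of Meg3 and of its antisense partner cannot be told apart here. The same limit holds for Malat1, whose row spans Gm20417 on the opposite strand (chr19:5797562-5798549).

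**Figure D3:**
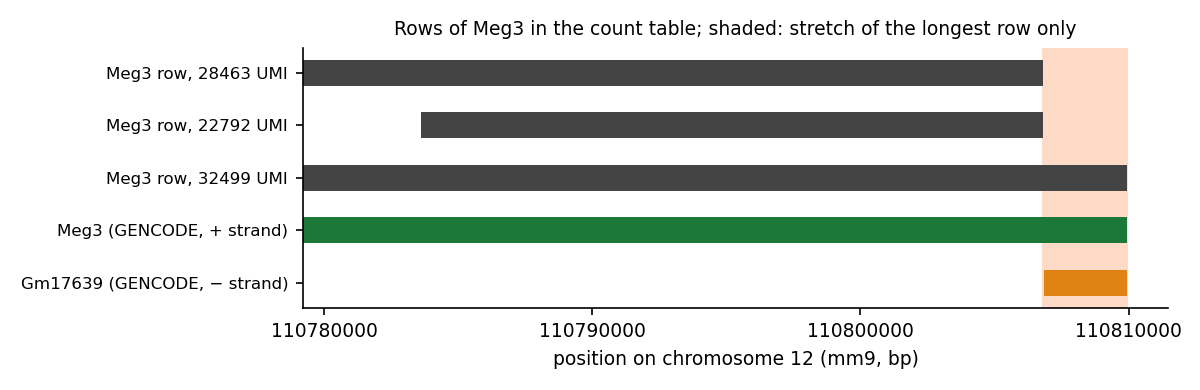
Map of the 3 Meg3 rows of the count table on chromosome 12 (mm9, position in bp), with the UMI of each row, above the spans of Meg3 (plus strand) and of Gm17639 (minus strand) in GENCODE vM1. The shaded 3129 bases belong to the longest row alone, and Gm17639 lies within them.

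Because reads were primed at poly(A), the last 60 bases before each row's 3′ end are shown for the genes with counts in most cells, read from the mm9 genome on the transcript's strand; capitals mark AATAAA, the usual signal for cleavage and polyadenylation. The end of the longest Meg3 row lies at chr12:110809880-110809939 and the shorter end at chr12:110806751-110806810, and both carry the motif, 27 and 34 bases before the end. The other ends are at chr19:5795690-5795749 (Malat1, minus strand), chr2:158211822-158211881 (Snhg11, plus strand) and chr12:110899862-110899921 (Rian, plus strand).
Meg3, longer end: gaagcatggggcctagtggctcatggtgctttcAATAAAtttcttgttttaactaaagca
Meg3, shorter end: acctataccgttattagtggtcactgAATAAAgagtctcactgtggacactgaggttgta
Malat1: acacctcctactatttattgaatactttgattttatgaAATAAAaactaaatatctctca
Snhg11: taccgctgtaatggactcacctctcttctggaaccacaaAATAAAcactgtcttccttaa
Rian: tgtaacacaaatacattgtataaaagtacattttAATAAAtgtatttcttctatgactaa
All 5 windows held AATAAA, as did the Neat1 row, and Miat held the variant ATTAAA. The counts behave as taken over whole spans, as described above, so they do not place the tags at these ends. Over the 26564 different row ends of the table, 68.7% of windows held one of these 2 motifs on the transcript's strand and 55.8% held AATAAA. The next 20 bases of the genome held 4 A after the longer Meg3 end, 3 after the shorter one, 1 after Malat1, 2 after Snhg11 and 10 after Rian; 7.86% of all row ends had 10 or more.

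The spread of these RNAs over the cells of a batch was compared with counting error. Within a batch, a gene's chi-square against the share expected from each cell's total, per degree of freedom, is about 1 under counting error alone, and the median gene with at least 100 UMI stood between 0.99 and 1.25 in the 8 batches. Meg3 had a median of 2.02 over batches, above the median gene in 8 of 8, and reached 9.39 in ChC batch 3, the deepest library, where the deepest cell (515374 UMI, 2148 of Meg3) carried most of it: without that cell the value was 1.598. Malat1 had a median of 2.07 (above in 7 of 8 batches), Snhg11 1.599 (6 of 8) and Rian 1.32 (4 of the 6 batches in which it had enough UMI), and their lowest batches stood at 0.87, 0.71 and 0.58. With the deepest cell of each batch left out, an alternative added after the values were seen, the medians were 1.72 for Meg3 (above the median gene in 8 of 8 batches), 1.47 for Malat1 (7 of 8), 1.42 for Snhg11 (5 of 8) and 1.34 for Rian (4 of 6). The measure grows with the counts of a gene, and those of Meg3, Malat1 and Snhg11 are among the highest. In CPM of the cell total, the lowest, median and highest cell of ChC batch 3 had 3962, 5337 and 6266 CPM of Meg3.

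Malat1 took a smaller part of the deeper cells in most batches. Within a batch, the Spearman correlation of its CPM with the cell's UMI total was -0.28, -0.09, -0.84 and -0.40 in the ChC batches and 0.36, -0.03, -0.50 and -0.78 in the Pv batches (15 or 16 cells each). It was below 0 in 7 of 8 batches, with a mean of -0.32 ± 0.40 (SD), which was the lowest of the 1464 genes that each batch showed in 50% or more of its cells, whose median was 0.12. Among the 71 of these genes with at least 1000 CPM the median was 0.06. In ChC batch 3 the shallower cells had a median of 2800 CPM and the deeper ones 2385 CPM, and in Pv batch 8 the values were 1528 and 1256 CPM; these are the batches with the lowest correlations, and shallower and deeper cells were close in ChC batch 2 (6929 and 6816 CPM), Pv batch 6 (2472 and 2440 CPM) and Pv batch 5 (2120 and 2143 CPM, the deeper cells higher). For Meg3 the mean was 0.07 ± 0.38, for Snhg11 -0.11 ± 0.32 and for Rian -0.06 ± 0.22 (7 batches), all with batches on both sides of 0. Points within a batch share the library, and the CPM of a cell contains the total it was compared with.

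**Figure D4:**
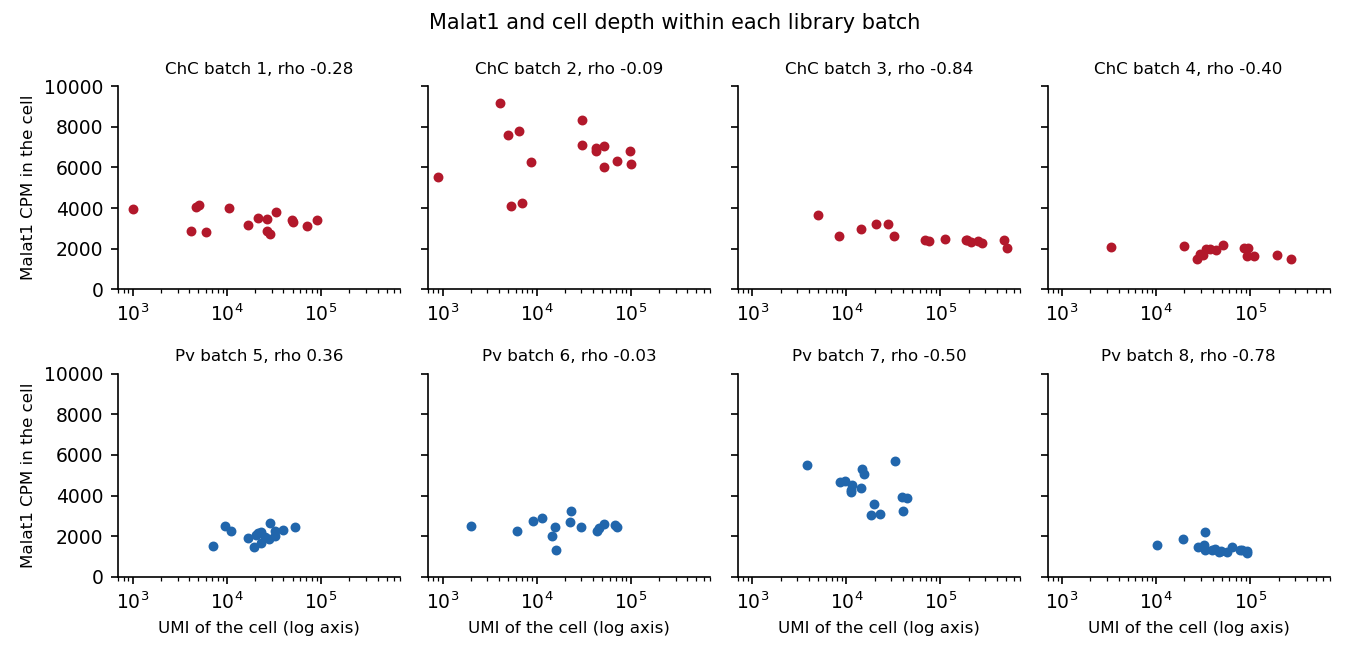
CPM of Malat1 in each cell (linear axis from 0) against the UMI total of the cell (log axis), one panel for each library batch, red ChC and blue Pv, with the Spearman correlation over the cells of the batch. The correlation is lowest in ChC batch 3 (-0.84) and above 0 only in Pv batch 5 (0.36).

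Between members, only Meg3 and Malat1 and Meg3 and Snhg11 had correlations above 0 in every batch. The mean Spearman correlation of CPM over cells within a batch was 0.34 ± 0.19 for Meg3 with Malat1 (SD over 8 batches, range 0.15 to 0.71) and 0.26 ± 0.20 for Meg3 with Snhg11 (0.06 to 0.67). For Meg3 with Malat1 the mean was 0.081 once cells were thinned to 10000 UMI and shallower cells left out. Malat1 with Snhg11 had 0.12 ± 0.31. Rian, without batch 6, had -0.17 ± 0.28 with Meg3, its neighbor on the chromosome, 0.02 ± 0.28 with Malat1 and -0.13 ± 0.24 with Snhg11. Weak correlations in sparse counts such as those of Rian carry little information.

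The genes most like each member over the cells of a batch were taken from the same 1464 genes. For Malat1 the nearest was Meg3, followed by Rps27a at 0.29 ± 0.14, Tcf4 at 0.27 ± 0.30, Apc at 0.27 ± 0.16 and Dusp3 at 0.26 ± 0.25 (mean correlation ± SD, 8 batches), where the median over the 1463 other genes was -0.03. For Meg3 they were Apc at 0.40 ± 0.24, Rps12 at 0.38 ± 0.20, Slc25a23 at 0.35 ± 0.35, Opcml at 0.35 ± 0.36 and Atp6v0c at 0.34 ± 0.22, with Malat1 at rank 7 and a median of 0.06. For Snhg11 they were Kif3c at 0.35 ± 0.26, Nsg1 at 0.32 ± 0.30, Dlgap1 at 0.30 ± 0.17, 1110002L01Rik at 0.30 ± 0.27 and Itm2c at 0.29 ± 0.24, with a median of 0.02. For Rian, over 7 batches, they included Smarca4 at 0.31 ± 0.30, Cfl1 at 0.30 ± 0.28, Arnt2 at 0.28 ± 0.20 and Myef2 at 0.25 ± 0.30, with a median of -0.03. The highest of over 1000 means is high by selection.

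The imprinted domain of Meg3 and Rian was read as a whole. Of its 7 listed genes, Dlk1 and Dio3, which are expressed from the paternal copy, were at 0, Rtl1 had 10 UMI and Begain 24, and Mirg, a host of microRNAs, had 84.4 ± 67.1 CPM (SD, n = 8 batches). Mirg had 128, 26.03, 230 and 50.1 CPM in the ChC batches and 47.1, 92.2, 46.8 and 54.7 CPM in the Pv batches. The 3 genes tested, Meg3, Rian and Mirg, had 0 calls in edgeR and a median log2 difference of 0.54, against 0.05 over all genes. Around Malat1 and Neat1 on chromosome 19, 9 of 10 protein-coding neighbors had a UMI, all at low levels: among the highest were Ltbp3 at 76.0 ± 54.4 CPM and Map3k11 at 62.5 ± 154 CPM (SD, n = 8 batches), and the 5 tested had 0 calls.

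Messenger RNAs for proteins of the bodies that these RNAs occupy were counted in both cell types. Of 18 genes for paraspeckle proteins 17 were tested, with 0 calls, 9 with a higher and 8 with a lower fitted value in ChC and a median log2 difference of 0.07. By the mean over batches, the most abundant were Smarca4 at 304 ± 300 CPM, Hnrnph1 at 288 ± 228 CPM and Matr3 at 238 ± 143 CPM (SD, n = 8 batches). Smarca4 had a mean of 459 CPM in Pv and 149 CPM in ChC, where Matr3 was the highest at 248 CPM. The messenger RNAs for paraspeckle proteins were thus counted in cells without a single UMI of the Neat1 row. Of 20 genes for nuclear speckle proteins 19 were tested, with 0 calls, 13 higher and 6 lower in ChC and a median of 0.63. By the mean over batches, the most abundant were Srrm1 at 330 ± 281 CPM, Sf3b1 at 286 ± 351 CPM and Srrm2 at 252 ± 116 CPM. Sf3b1 had a mean of 491 CPM in ChC, with 1112 CPM in batch 2, and 80.3 CPM in Pv, where Srrm2 was the highest at 297 CPM. The genes of the 4 listed partners of Miat were tested with 0 calls and a median of 0.83, and Srsf1 (232 ± 221 CPM), Sf1 (221 ± 159 CPM) and Qk (192 ± 107 CPM) were the highest.

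By their means over the 8 batches, the other listed long noncoding RNAs were lower than the 3 leading members. Of 55 listed, 37 had a row, 34 had a UMI and 23 were tested, with 0 calls, 14 higher and 9 lower in ChC and a median log2 difference of 0.71. The highest was 2900097C17Rik (the mouse Norad) at 1014 ± 322 CPM, found in all cells but 1 and above Malat1 in Pv batch 8 (1433 against 1290 CPM), followed by Tsix at 391 ± 281 CPM and Xist at 353 ± 292 CPM (SD, n = 8 batches). Tsix overlaps Xist on the opposite strand and its counts were close to those of Xist in most batches, so that the pair cannot be told apart without strand.

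Early response genes were read beside the members. Of 12 early response genes, which are induced within minutes by activity or by handling, 7 were tested, all with a higher fitted value in ChC, 0 called by edgeR, and a median log2 difference of 3.08; their summed level was 1852, 720, 3903 and 3258 CPM in the ChC batches and 563, 691, 221 and 158 CPM in the Pv batches. Fos was the highest at 996 ± 1078 CPM, then Egr1 at 114 ± 142 CPM and Dusp1 at 74.0 ± 76.2 CPM (SD, n = 8 batches), and Atf3 was at 0. The batches of the types were apart in this sum, but by little between ChC batch 2 (720 CPM) and Pv batch 6 (691 CPM). Fos by itself overlapped, with 61.4 CPM in ChC batch 2 and 524, 648 and 133 CPM in Pv batches 5, 6 and 8. Jun, Nr4a1 and Npas4 overlapped as well. The other tested genes, Egr1, Dusp1 and Junb, did not overlap, with ChC higher. Egr1 had at least 51.6 CPM in the ChC batches and at most 12.99 CPM in the Pv batches. For Dusp1 these values were 83.6 and 19.4 CPM, and for Junb 53.9 and 5.195 CPM. Any part of this response in the 3′ share of Meg3 was not tested.

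Among the marker lists the 10 interneuron genes were all tested, with 0 calls, 7 higher and 3 lower in ChC and a median of 0.25. They were led by Erbb4 at 3182 ± 1632 CPM, Slc32a1 at 2216 ± 792 CPM and Gad1 at 1357 ± 750 CPM (SD, n = 8 batches). Erbb4 had a mean of 4615 CPM in ChC and 1749 CPM in Pv, where Slc32a1 was higher at 2219 CPM. Pyramidal markers summed to 36.9, 311, 37.2 and 524 CPM in the ChC batches and 302, 558, 899 and 101 CPM in the Pv batches, and neither of the 2 tested was called; after Camk2a came Slc17a7 at 56.99 ± 97.4 CPM. Astrocyte markers summed to 41.8, 329, 231 and 709 CPM in the ChC batches and 27.7, 12.1, 686 and 166 CPM in the Pv batches, with 0 of 3 called, led by Slc1a2 at 163 ± 188 CPM, Slc1a3 at 84.4 ± 75.7 CPM and Gja1 at 20.9 ± 29.1 CPM. Oligodendrocyte markers summed to 12.3, 7.44, 61.3 and 112 CPM in the ChC batches and 24.96, 148, 90.9 and 52.3 CPM in the Pv batches, with 0 of 1 called, led by Mbp at 30.1 ± 32.9 CPM and Cnp at 22.1 ± 50.2 CPM. Microglia markers summed to 0, 1.86, 0 and 59.9 CPM in the ChC batches and 0, 0, 12.99 and 0 CPM in the Pv batches, and endothelial markers to 17.2, 18.6, 6.41 and 18.8 CPM and 5.55, 21.8, 23.4 and 17.8 CPM, with none tested; their highest genes were Csf1r, Aif1 and Cx3cr1 (2.77, 2.46 and 2.13 CPM) and Flt1, Pecam1 and Kdr (8.27, 5.55 and 2.38 CPM). The part of other cell types in the levels of the 6 RNAs was not tested.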

How the data were processed

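The authors aligned poly(A)-primed reads to mm9 with Bowtie 0.12.7, kept 1 read for each varietal tag and gene, and deposited the resulting counts for each transcript row and cell without normalization. The deposited table also gives other row values (chromosome, start, end, strand and length of each transcript). Cells are numbered, not named by barcode. A custom script of the study made the counts, and its use of strand and of introns is not given in the sources used here.

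UMI were summed per animal, 2 against 2, and tested with edgeR 4.0.16 (quasi-likelihood test, TMM, filterByExpr, Benjamini-Hochberg over all genes tested, threshold 0.05); DESeq2 1.42.0 and limma 3.58.1 (voom, animal as random block) served as alternatives, all in R 4.3.3. Levels, thinning (10000 or 5000 UMI), correlations and exact tests used scipy 1.17.1, pandas 2.3.3 and numpy 2.4.6 under Python 3.11.15, and matplotlib 3.10.9 drew the plots. Intervals are exact binomial at 95%, and the limit for a count of 0 takes 3 counts. The tests were checked on simulated counts. For edgeR the dispersion of these counts was set, not estimated from the data, so the check does not give the power of the test here.

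The genes named are the 6 members, for each the 5 genes with the highest mean correlation within batches, any called gene of the lists, and the 3 most abundant genes of each list; others were chosen after their values were seen. The members and lists were chosen with earlier results of these data known. Batches of 1 animal are technical replicates of it. Sequences are from NCBIM37 (mm9), annotation from GENCODE vM1. A few of the genes that the design would have named are not reported here; they stay in the list counts and sums.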

Additional observations from a re-analysis of the deposited data

Results flagged for a closer look

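Of the 12 groups of 4 batches examined for a batch far from the other 3 (the members' CPM in each cell type where any UMI was found, and the 3′ share of Meg3), 2 held such a batch, and chance gives about 1 in 20 groups. Both concern Miat, whose counts are too sparse for that rate to apply: where 3 batches are at 0, any UMI in the fourth sets it apart. In ChC, batch 3 had 13.2 CPM while the other 3 batches were at 0, and in Pv, batch 7 had 44.2 CPM while the nearest batch had 2.77 CPM. The counts behind them are 33 and 17 UMI. The reason was not tested.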

How the results depend on the processing

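The number of genes called between ChC and Pv, 0 in edgeR over animals, was 165 with DESeq2, 84 without a filter on low counts, 6 with batches as samples and 6 with limma-voom and the animal as a random block (its consensus correlation was -0.043). It lay between 0 and 96 when animals or batches were left out in turn, where a lone animal of a type is assumed to vary like the others. Leaving out animal 4 moved the median log2 difference of all genes from 0.05 to 0.57, and leaving out animal 2 moved it to -0.28. No alternative called a member.

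The log2 difference of Malat1 ranged from -0.064 (without animal 1) to 1.30 over the animals and batches left out, that of Meg3 from 0.13 to 0.62, that of Rian from -0.29 (without Pv batch 6; -0.26 without animal 1) to 1.95, and that of Snhg11 from -0.30 to 0.64. Snhg11 was below 0 without ChC batch 1 (-0.30), ChC batch 3 (-0.22), Pv batch 5 (-0.089) or Pv batch 8 (-0.083). With the overlapping Meg3 rows summed, the log2 difference of Meg3 was 0.65 and its mean level moved from 5782 to 13212 CPM in ChC and from 4402 to 8605 CPM in Pv, since tags shared by the rows are then counted more than once.

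The mean correlation of Meg3 with Malat1 was 0.081 when cells were thinned to 10000 UMI; the cause was not tested. The other 62 values for pairs and all 35 for the correlation with the cell total stayed within 1 SD over batches. The 3′ share of Meg3 (24.5 percentage points between the types) stayed within 1 SD under all 11 alternatives, which were chosen after seeing the data. The chi-square of Meg3 over the cells of ChC batch 3 was 9.39 per degree of freedom and 1.598 without the deepest cell, an alternative added after seeing the data. Depth limits the share of cells with a UMI most for Rian and Miat.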
